A study of Mus musculus with 18 samples.

Results

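The genes described here were the alpha and pi class glutathione transferases *Gsta1*, *Gsta2*, *Gsta3*, *Gsta4*, *Gstp1* and *Gstp2*, taken by name from the count table, 6 of its 47729 genes. All 6 passed the filter on low counts, which left 18958 genes for testing. They were compared between eyes of *rd1* mice at postnatal day 40 (P40), in RNA that the labels give as that of the retinal pigment epithelium (RPE). The *rd1* animals (FVB/N) carry a *Pde6b* mutation in every cell and lose their rods early, so by the labels both groups were degenerating eyes. In each of 9 mice, 1 eye had received AAV-Best1-Nrf2, which expresses the human *Nrf2* cDNA, together with AAV-Best1-GFP, and the other eye AAV-Best1-GFP alone. These eyes are called Best1-Nrf2 and control, with 9 libraries each, and the question was which RPE genes responded to Nrf2. The methods describe fewer *rd1* pairs at this age than the labels give, beside pairs of wild-type CD1 mice, and both kinds add up to the 9 pairs labelled here. Some of these animals may therefore be CD1, which was not tested. The *rd1* label of all 18 libraries was followed here, and every n and p below rests on it. The Best1 promoter restricts expression to the RPE, and the RNA was recovered from the fluid in which the eyecup had been kept, once the retina was off, a procedure meant to release RPE cells. By the labels, eyes with and without Nrf2 belonged to the same animals, which would give them the same genotype, sex and age.

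Glutathione transferases join the thiol of glutathione to electrophiles, which are then exported from the cell and broken down to mercapturates. Alpha class enzymes are known for handling lipid peroxidation products, and *Gsta4* in particular encodes an enzyme with high activity toward 4-hydroxynonenal, a reactive aldehyde made from oxidized polyunsaturated fatty acids. Such fatty acids are abundant in the photoreceptor outer segments that the RPE engulfs. Pi class enzymes conjugate a broad range of electrophiles and also take part in protein S-glutathionylation. Nrf2 activates genes of both classes through antioxidant response elements.

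*Gsta1*, *Gsta2* and *Gsta4* lie close together on chromosome 9 of GRCm38, whereas *Gsta3* is alone on chromosome 1. *Gsta4* occupies chr9:78182774-78209349 on the plus strand, and *Gsta1* follows 21306 bases later at chr9:78230656-78242684, also on the plus strand. *Gsta2* is at chr9:78331018-78355788 on the minus strand, 121668 bases from *Gsta4*, and *Gsta3* at chr1:21240589-21265661 on the plus strand. The pi class pair is on the minus strand of chromosome 19, with *Gstp1* at chr19:4035407-4037985 and *Gstp2* at chr19:4040285-4046023, 2299 bases apart. Each of the 6 is a protein-coding gene with 7 exons in its longest coding transcript. The alpha proteins have 223, 222, 221 and 222 amino acids for *Gsta1* to *Gsta4*, and both pi proteins have 210.

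How far the members can be told apart in short reads differs widely, and the coding sequences are shown for that reason. *Gsta1* and *Gsta2* were identical over 97.47% of their coding alignment, with 17 differing columns of 672. Lowercase letters below are coding bases 449 to 508 of the annotated GRCm38 transcripts (each read along its own gene's strand), and capitals mark bases that differ from the first line. *Gm10639*, an alpha class gene between *Gsta1* and *Gsta2*, is shown with them because it was 98.51% identical to *Gsta2*.
Gsta1: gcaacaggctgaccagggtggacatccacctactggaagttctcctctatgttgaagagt
Gsta2: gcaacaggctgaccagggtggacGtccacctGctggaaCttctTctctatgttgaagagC
Gm10639: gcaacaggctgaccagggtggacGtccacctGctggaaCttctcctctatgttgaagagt

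The pi pair was as close, at 98.1% identity with 12 differences in 633 coding bases. Of these, 6 fell in the first 60 coding bases, shown with capitals where *Gstp2* departs from *Gstp1*.
Gstp1: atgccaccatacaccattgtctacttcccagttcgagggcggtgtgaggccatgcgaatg
Gstp2: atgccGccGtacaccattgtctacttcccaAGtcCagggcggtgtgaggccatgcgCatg

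To measure shared stretches, the annotated transcripts of a gene were cut into 31-base words, and the words that also occur in another gene were counted. That share was 92.2% for *Gsta1*, with 87.8% shared with *Gm3776*, a copy that differs from *Gsta1* at only 2 of 672 coding bases. This copy is not among the genes of the count table. Reads of that copy cannot be told apart from those of *Gsta1* and may be part of its counts. It was 75.6% for *Gsta2*, 67.5% for *Gstp1* and 78.1% for *Gstp2*. *Gsta3* shared 1.05% and *Gsta4* 0 of its words. The counts of *Gsta3* and *Gsta4* are therefore well separated from other genes, while the split between *Gsta1* and *Gsta2*, and between *Gstp1* and *Gstp2*, is uncertain.

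Promoter sequences of RefSeq (GRCm38.p6, 250 bases before to 50 after the start) were found for 5 of the 6 members, all but *Gsta4*. They were searched on both strands for TGACNNNGC and TGAGNNNGC, the core letters of an antioxidant response element. At least 1 of these motifs occurred in 27.8% of 32851 promoters of the same length (12.4% for TGACNNNGC and 17.6% for TGAGNNNGC). The windows of *Gsta2* (chr9:78347096-78347395) and *Gstp2* (chr19:4042172-4042471) lie inside the gene spans given above, so their RefSeq starts are not the outer ends of those spans. Bases outside the windows were not searched. Within them *Gsta3*, *Gstp1* and *Gstp2* held a match and *Gsta1* and *Gsta2* did not. The stretches around these matches are given in the direction of the gene, with the matched letters in capitals, from chr1:21240438-21240492 (plus strand), chr19:4037958-4038012 (minus strand) and chr19:4042282-4042336 (minus strand).
Gsta3: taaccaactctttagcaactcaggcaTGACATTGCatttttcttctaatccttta
Gstp1: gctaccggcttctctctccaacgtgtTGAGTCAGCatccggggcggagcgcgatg
Gstp2: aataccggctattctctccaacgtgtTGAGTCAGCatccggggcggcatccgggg

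The match began 121 bases before the RefSeq start of *Gsta3*, 74 before that of *Gstp1* and 89 before that of *Gstp2*. *Gstp1* and *Gstp2* carried the same 9 matched letters, and *Gstp1* had a second match on the opposite strand 9 bases before its start. These are matches of letters only. No binding was measured.

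Library totals ranged from 18956748 to 49598700 counts, and control replicate 8 had the smallest. Levels are given as CPM, counts scaled to a common library size after TMM normalization, that is, per 1e+06 counts, where TMM is a correction for differences in library composition. RPE markers were abundant in every eye, with a summed level of 14306 to 70196 CPM in control and 17545 to 80230 CPM in Best1-Nrf2 eyes over 19 genes. The median sum was lower with Nrf2, 21820 against 42782 CPM, and the mean log2 CPM of these markers was lower in 7 of 9 mice, by 0.47 on average. *Nfe2l2*, the mouse gene for Nrf2, rose from 89.7 ± 17.8 to 453 ± 147 CPM (SD, n = 9 each; log2 fold change 2.29, SE 0.21, edgeR adjusted p = 6.21e-05). Whether reads of the human cDNA were counted there was not tested. *Nqo1*, a quinone reductase and standard Nrf2 target, rose by 2.02 on the log2 scale (SE 0.20, edgeR adjusted p = 9.58e-05), higher in 9 of 9 mice.

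All 6 transferase genes rose in Best1-Nrf2 eyes, against 4.25% of all tested genes called in either direction and 3.12% called higher. Each of the 6 was higher with Nrf2 in 9 of 9 mice, which held for 3.12% of tested genes. In 4 of the 6 (*Gsta1*, *Gsta2*, *Gsta3* and *Gstp1*) every Best1-Nrf2 eye lay above every control eye, as in 1.05% of tested genes. The median log2 fold change of the 6 was 3.26, where that of all tested genes was -0.025. Together the 6 genes took 0.269% ± 0.142 of all counts in control eyes and 1.02% ± 0.284 with Nrf2 (SD, n = 9 per group). For each gene the 2-sided exact sign-flip permutation test over mice gave p = 0.0039, the smallest that 9 pairs allow.

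**Figure D1:**
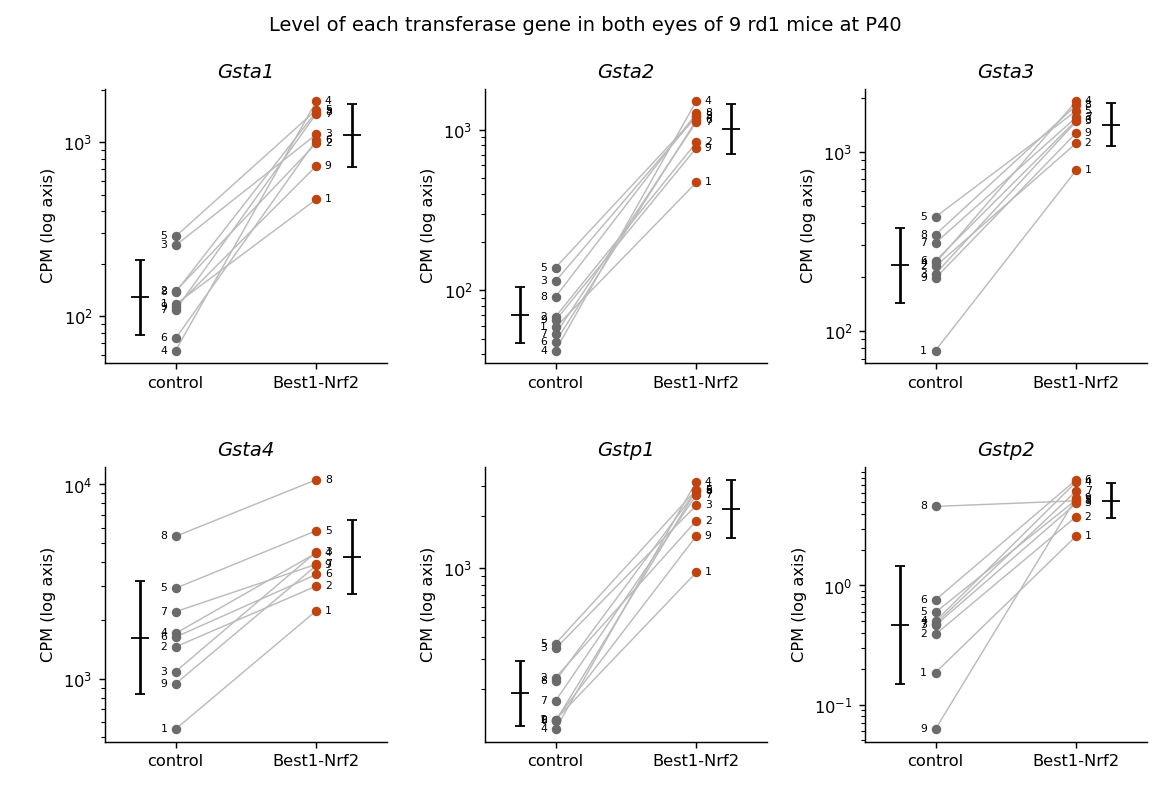
Level of each gene in CPM (log axis) in the control and Best1-Nrf2 eye of 9 mice, with lines joining the eyes of a mouse, mouse numbers beside the points, and bars for the mean ± SD of log2 CPM. Every line rises, and the groups overlap for *Gsta4* and *Gstp2* only, in *Gstp2* through the control eye of mouse 8 at 4.62 CPM.

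*Gsta1*, an alpha class gene long known as inducible, had a lowest, median and highest level of 63.4, 117 and 287 CPM in control eyes and of 470, 1110 and 1722 CPM in Best1-Nrf2 eyes. The lowest Best1-Nrf2 eye, that of mouse 1, was thus above the highest control eye, that of mouse 5. The log2 fold change was 3.08 (SE 0.31, edgeR quasi-likelihood test with Benjamini-Hochberg adjustment, adjusted p = 0.00012), or 8.46-fold. Within mice the change ran from 2.01 in mouse 1 to 4.76 in mouse 4 on the log2 scale. Mouse 4 had both the lowest control eye and the highest Best1-Nrf2 eye.

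*Gsta2*, its near-identical neighbour, had the largest change of the 4 alpha class members. Its lowest, median and highest levels were 42.3, 65.1 and 139 CPM in control eyes and 470, 1145 and 1509 CPM in Best1-Nrf2 eyes. The extremes came from the same eyes as for *Gsta1*, and the groups again lay apart. The log2 fold change was 3.84 (SE 0.26, edgeR adjusted p = 9.03e-06), or 14.3-fold, and within mice it ran from 2.99 in mouse 1 to 5.16 in mouse 4.

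The balance between these copies shifted as both rose. Per 100 counts of *Gsta1* there were 55.2 ± 8.65 counts of *Gsta2* in control and 93.1 ± 13.4 in Best1-Nrf2 eyes (SD over 9 mice). The lowest Best1-Nrf2 value, 76.7, was above the highest control value, 66.7, and the ratio was higher in 9 of 9 mice (2-sided exact sign-flip permutation test, p = 0.0039). Because most of their sequence is shared, the ratio is one of assigned counts. With the counts of both genes summed, the log2 fold change was 3.39, a value that does not depend on how reads were split between this pair.

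*Gm10639*, the copy shown above beside them, was also counted at a low level. Its level went from 1.78 ± 1.42 to 36.0 ± 11.4 CPM with Nrf2 (SD, n = 9 per group), without overlap, with a log2 fold change of 4.55 (SE 0.35, edgeR adjusted p = 1.64e-05). This was 0.855 ± 0.599 and 1.63 ± 0.227 counts per 100 counts of *Gsta1* and *Gsta2*, higher in 8 of 9 mice (exact sign-flip p = 0.0117). Reads of the abundant copies that were placed on *Gm10639* cannot be told apart from its own.

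*Gsta3*, an alpha class gene that shares almost no sequence words with the others, had levels of 77.6, 239 and 432 CPM (lowest, median, highest) in control eyes and 787, 1496 and 1913 CPM in Best1-Nrf2 eyes. Its lowest control eye was that of mouse 1, well under the next, and the groups did not overlap. It rose by 2.60 on the log2 scale (SE 0.19, edgeR adjusted p = 1.24e-05), or 6.08-fold, with the smallest standard error of the 6. Within mice the rise was 1.97 in mouse 5 to 3.34 in mouse 1.

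*Gsta4*, the 4-hydroxynonenal transferase, had the highest level in both groups and the smallest change. Its lowest, median and highest levels were 551, 1641 and 5412 CPM in control eyes and 2243, 3885 and 10585 CPM in Best1-Nrf2 eyes. The groups overlapped, because the control eyes of mice 8 (5412 CPM) and 5 (2924 CPM) were above the lowest Best1-Nrf2 eye. Mouse 8 had the highest level in both of its eyes and mouse 1 the lowest in both. The log2 fold change was 1.37 (SE 0.22, edgeR adjusted p = 0.0032), or 2.58-fold, and ran within mice from 0.81 in mouse 7 to 2.05 in mouse 3.

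The call for *Gsta4* depended on comparing eyes within mice, a pairing that rests on the labels. Without mouse as a block its log2 fold change was 1.22 with an adjusted p of 0.107. The share of *Gsta4* in the counts of the 6 genes fell from 70.8% ± 10.4 to 42.5% ± 7.72 (SD, n = 9 each), lower in 9 of 9 mice (2-sided exact sign-flip permutation test on the log ratio, p = 0.0039).

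*Gstp1*, the main pi class gene, had levels of 118, 172 and 367 CPM (lowest, median, highest) in control eyes and 946, 2647 and 3163 CPM in Best1-Nrf2 eyes. As for *Gsta1* and *Gsta2*, the highest control eye was that of mouse 5, the lowest Best1-Nrf2 eye that of mouse 1, and the groups lay apart. The gene rose by 3.53 on the log2 scale (SE 0.27, edgeR adjusted p = 1.66e-05), or 11.5-fold, with 2.75 in mouse 3 and 4.74 in mouse 4 as the extremes.

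*Gstp2*, the minor pi class copy, was near the limit of counting. Its control eyes held 3 to 81 counts, with a lowest, median and highest level of 0.0622, 0.478 and 4.62 CPM. Its Best1-Nrf2 eyes held 127 to 288 counts, or 2.61, 5.26 and 7.74 CPM. The overlap came from the control eye of mouse 8 alone, with 81 counts, while the other 8 control eyes had 33 or fewer. The log2 fold change was 3.43 (SE 0.51, edgeR adjusted p = 0.00175), and within mice it ran from 0.16 in mouse 8 to 5.57 in mouse 9, whose control eye had 3 counts. Without mouse 8 it was 3.78.

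Per 100 counts of *Gstp1*, *Gstp2* had 0.443 ± 0.627 counts in control eyes and 0.240 ± 0.0550 with Nrf2 (SD, n = 9 per group). The difference was not larger than its spread (higher in 5 of 9 mice, 2-sided exact sign-flip permutation test, p = 0.887). At so small a ratio, *Gstp2* counts cannot be told apart from *Gstp1* reads that were placed on the copy. The processed pseudogene *Gstp-ps* on chromosome 1 was counted too, and 68.1% of its words occur in *Gstp1*. It went from 1.43 ± 0.700 to 29.0 ± 8.50 CPM (SD, n = 9 each; log2 fold change 4.46, SE 0.27, edgeR adjusted p = 7.15e-06). Per 100 counts of *Gstp1* it had 0.715 ± 0.298 and 1.28 ± 0.221, higher in 8 of 9 mice (exact sign-flip p = 0.0078). *Gstp3*, the other pi class gene of this cluster, had at most 8 counts in a library and was not tested.

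**Figure D2:**
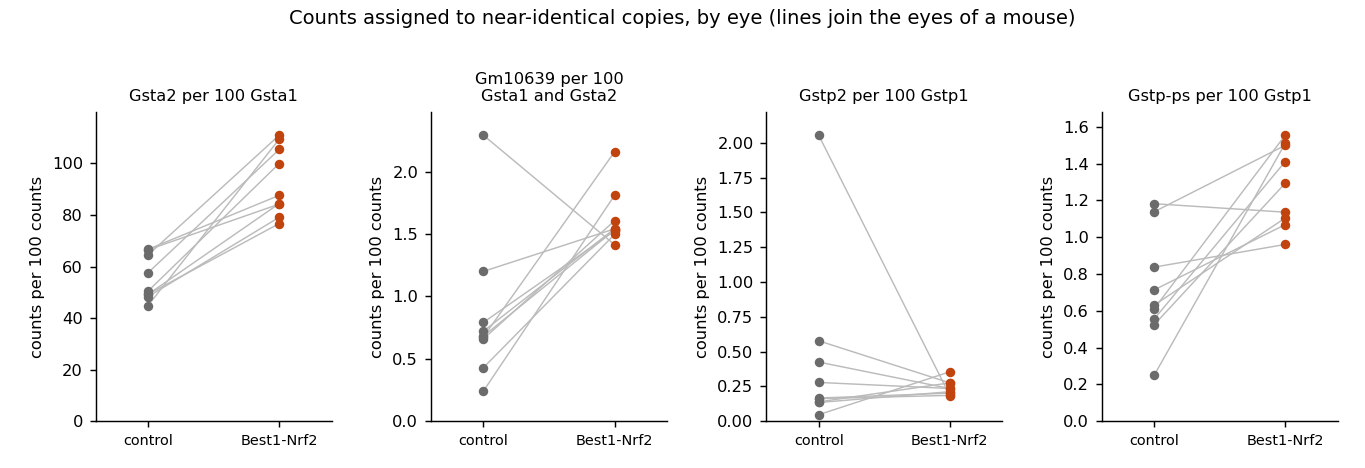
Counts assigned to a copy per 100 counts of its closest abundant relative, in the control and Best1-Nrf2 eye of each of 9 mice, on linear axes from 0. *Gsta2* per 100 *Gsta1* counts rose in 9 of 9 mice, from a mean of 55.2 to 93.1, whereas *Gstp2* stayed under 1 per 100 *Gstp1* counts except in the control eye of mouse 8, at 2.06.

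The sizes of the changes were compared directly between members, as differences of within-mouse log2 changes over 15 pairs of genes. *Gsta2* changed by 0.75 more than *Gsta1* on the log2 scale and by 0.31 more than *Gstp1*, each in 9 of 9 mice (2-sided exact sign-flip permutation test, p = 0.0039, adjusted over the 15 pairs p = 0.0117). Because *Gsta2* shares most of its sequence with *Gsta1*, its order over *Gstp1* is one of assigned counts. With the copies of each pair summed, the log2 fold change was 3.39 for the *Gsta1* and *Gsta2* pair and 3.52 for the *Gstp1* and *Gstp2* pair. The first sum also takes in the smaller change of *Gsta1*, so it cannot show what the split of reads did to this order. *Gsta4* changed less than *Gsta2*, *Gsta3* and *Gstp1* in 9 of 9 mice, by 2.47, 1.23 and 2.16 (adjusted p = 0.0117 for each, exact sign-flip test). Against *Gsta1* the difference was 1.72 in 8 of 9 mice (adjusted p = 0.013, exact sign-flip test). For *Gsta1* against *Gsta3* the mean difference of 0.49 was within its SD of 1.02 over mice (exact sign-flip p = 0.184). *Gstp1* and *Gstp2* differed by 0.29 with an SD of 1.53 (exact sign-flip p = 0.617), a spread too wide to show that they changed alike.

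The mice with large changes were not the same for every gene. For *Gsta1*, *Gsta2* and *Gstp1* the 3 largest changes were in mice 4, 6 and 7, in that order. *Gsta4* had its 3 largest in mice 3, 1 and 9, at 2.02 to 2.05 on the log2 scale, and its 6 others between 0.81 and 1.37. *Gsta3* had its largest changes in mice 1, 4 and 3. Mouse 4 also had the highest *Nfe2l2* level, 704 CPM, in its Best1-Nrf2 eye.

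**Figure D3:**
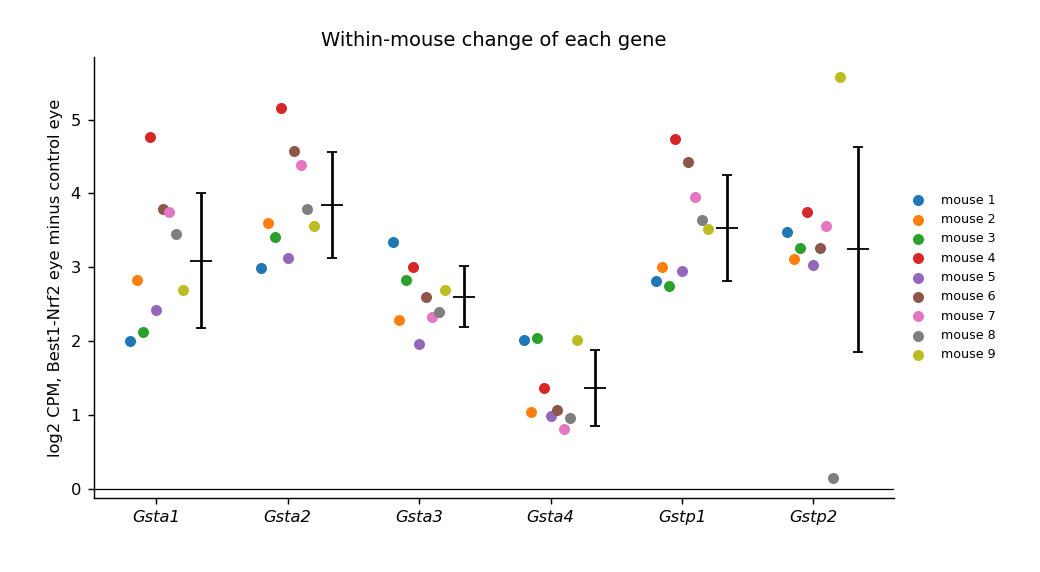
Difference in log2 CPM between the Best1-Nrf2 and the control eye of each mouse (colours) for each gene, with black bars for the mean ± SD over 9 mice. All points lie above 0, from 0.16 (*Gstp2*, mouse 8) to 5.57 (*Gstp2*, mouse 9), and mouse 4 is the highest for *Gsta1*, *Gsta2* and *Gstp1*.

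Levels were ordered between genes after division by the length of the longest coding transcript. In control eyes *Gsta4* was first with 2042 ± 1496 CPM per kb (SD, n = 9), followed by *Gstp1* with 251 ± 115, *Gsta3* with 174 ± 68.7, *Gsta1* with 165 ± 87.8, *Gsta2* with 87.0 ± 37.5 and *Gstp2* with 1.12 ± 1.77. *Gsta4* exceeded *Gstp1*, and *Gsta1* exceeded *Gsta2*, in 9 of 9 control eyes. *Gstp1* was above *Gsta3* in only 6 of 9 eyes and *Gsta3* above *Gsta1* in 5 of 9, so that these neighbours did not differ beyond their spread. In Best1-Nrf2 eyes *Gsta4* was again first with 4744 ± 2502 CPM per kb and *Gstp1* second with 2833 ± 889, an order seen in 9 of 9 eyes. *Gsta1* with 1340 ± 473 and *Gsta2* with 1218 ± 360 followed (in this order in 5 of 9 eyes), then *Gsta3* with 1000 ± 243 and *Gstp2* with 6.77 ± 2.03. The place of *Gsta3* rested on which of its transcripts is used, of 1457 or 894 bases. With the shorter 1 it was second in control eyes, at 284 CPM per kb, and the third in Best1-Nrf2 eyes, at 1630.

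Markers of other cells moved between the groups as well. All 9 cone markers fell (median log2 fold change -3.27), with a summed level of 256 to 2038 CPM in control and 28.2 to 288 CPM in Best1-Nrf2 eyes. Of 9 rod markers tested, 3 fell (*Sag*, *Pde6g* and *Gngt1*, with log2 fold changes of -5.03 to -4.34) and 1 rose (*Rom1*, 146 to 400.0 CPM). Their mean log2 CPM was lower with Nrf2 in 8 of 9 mice, by 1.29 on average, while the summed levels, 157 to 872 and 267 to 598 CPM, were mostly *Rom1* in Best1-Nrf2 eyes. In bulk RNA, fewer cells of a type and less RNA per cell cannot be told apart. The retina had been taken off beforehand, and how much of it stayed on each eyecup is not given. Of 16 macrophage and microglia markers 9 rose and none fell, with sums of 182 to 527 and 203 to 702 CPM, and of 8 fibroblast and sclera markers 1 rose (*Col3a1*), with sums of 188 to 650.5 and 387 to 746 CPM. The mean log2 CPM of either list was higher with Nrf2 in 9 of 9 mice, by 1.21 and 0.68, and their part in the rise of the transferases was not tested. Of the RPE markers 5 fell and none rose (*Rpe65*, *Rlbp1*, *Lrat*, *Rdh5* and *Rgr*, all genes of the visual cycle). With the mean of the RPE markers as a covariate, *Gsta4* had a log2 fold change of 1.24 with an adjusted p of 0.0667 and *Gstp2* 2.43 with an adjusted p of 0.0773, while the other 4 members kept their calls.

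In control eyes the levels of *Gsta4*, *Gsta3* and *Gstp2* moved against the cone markers. The 4 control eyes with the lowest *Gsta4*, those of mice 1, 9, 3 and 2, were also the 4 with the lowest *Gsta3* and the 4 with the highest cone marker score (mean log2 CPM of 9 genes). Their cone scores were 6.45, 7.14, 6.06 and 6.76, and those of the other 5 control eyes were 4.26 to 5.21. The 4 lowest *Gstp2* levels were in the same eyes, at 0.0622 to 0.463 CPM, with 0.478 CPM in the next. The 3 mice with the largest change in *Gsta4* were among these 4. Whether these 4 control eyes differ from the other 5 in strain was not tested. *Gstp1* had no such order, as its highest control levels were in mice 5 and 3 and its lowest in mouse 4. With the mean of rod and cone markers as a covariate beside the mouse block, *Gsta4* had a log2 fold change of 0.91 with an adjusted p of 0.315. *Gstp2* had 2.18 with an adjusted p of 0.329, while *Gsta1*, *Gsta2*, *Gsta3* and *Gstp1* stayed past the threshold. With it the log2 change was 4.33 for *Gm10639* (SE 0.77, adjusted p = 0.0704) and 1.85 for *Nfe2l2* (SE 0.44, adjusted p = 0.123), both past the threshold without it. Of all tested genes 27 were called, all higher. This covariate itself moved with treatment, as the cone score was lower with Nrf2 in 9 of 9 mice and the rod score in 8 of 9. With it the SE went from 0.22 to 0.47 for *Gsta4* and from 0.31 to 0.63 for *Gsta1*. Treatment and photoreceptor content could thus not be well separated, and the part of photoreceptor content was not tested.

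Lens markers also varied between eyes, and ran with *Gsta4* in some of them. None of the 7 tested lens markers was called. Mice 8 and 5, with the highest *Gsta4* in both groups, had the highest lens marker scores (mean log2 CPM) in both, at 4.05 and 4.38 in control and 6.35 and 4.80 in Best1-Nrf2 eyes. The lowest control scores, 0.90 and 1.43, were in mice 3 and 1. The lowest lens score with Nrf2, -1.62, was that of mouse 4, at a *Gsta4* level of 4442 CPM, above the group median. With the lens score as a covariate beside the mouse block, chosen after seeing the data, *Gsta4* had a log2 fold change of 1.37 with an adjusted p of 0.0047, and all 6 members were called.

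**Figure D4:**
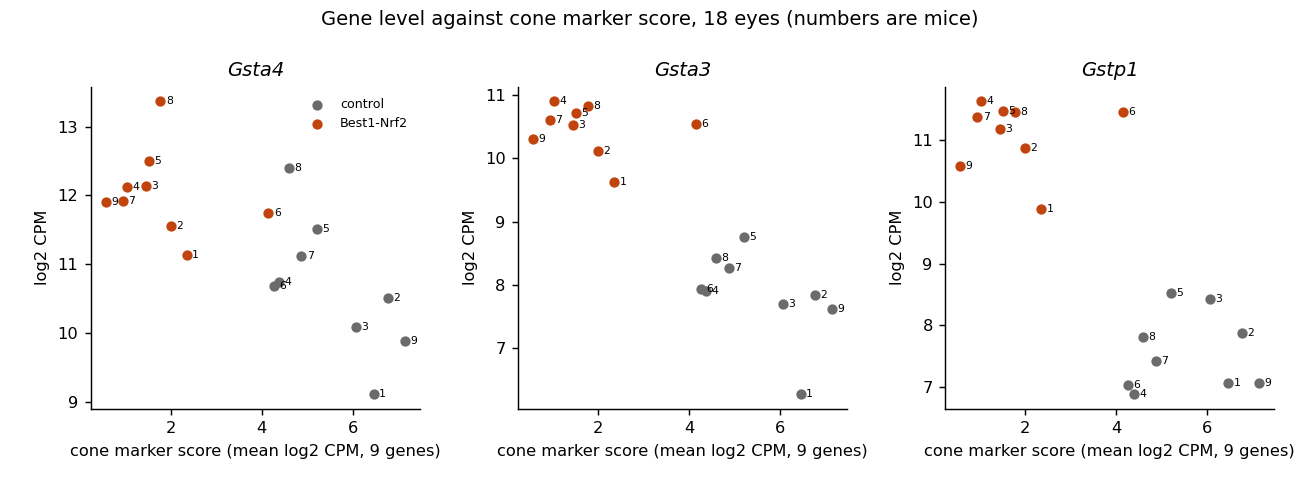
Log2 CPM of *Gsta4*, *Gsta3* and *Gstp1* against the cone marker score (mean log2 CPM of 9 cone genes) in 9 control and 9 Best1-Nrf2 eyes, numbered by mouse. The control eyes of mice 1, 2, 3 and 9, with scores of 6.06 or more, are the lowest for *Gsta4* and *Gsta3* but are spread over the control range of *Gstp1*, and the Best1-Nrf2 eye of mouse 6 has a cone score of 4.14.

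The other steps of glutathione conjugation were read from 4 gene lists that hold none of the 6 members. Of their 49 tested genes, 17 rose and none fell, next to 4.25% of all tested genes called in either direction. With the photoreceptor covariate 3 of the 49 were called.

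All 5 genes of glutathione supply rose, with a median log2 fold change of 3.43. *Gclc* and *Gclm*, the catalytic and modifier subunits of glutamate-cysteine ligase, which makes the first step of glutathione synthesis, rose by 4.72 (SE 0.45) and 3.43 (SE 0.23) on the log2 scale. *Slc7a11*, which imports cystine, rose by 3.53 (SE 0.37), *Gss*, glutathione synthetase, by 2.80 (SE 0.31), and *Gsr*, which reduces oxidized glutathione, by 2.06 (SE 0.25). Their edgeR adjusted p values were 8.06e-06 to 0.000407, and each was higher in 9 of 9 mice without overlap of the groups. *Gclc* lies in the same region of chromosome 9 as the alpha class genes, at chr9:77754535-77794485 on the plus strand. In contrast to the transferases, the lowest Best1-Nrf2 eye for these 5 genes was that of mouse 3 or mouse 6, not of mouse 1.

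Transferases of other classes had 18 tested genes, of which 5 rose and none fell, with a median log2 fold change of 0.28. All 5 were of the mu class, whose members also resemble each other closely. *Gstm1* had the largest change of any transferase, from 92.7 ± 61.8 to 6924 ± 3809 CPM (SD, n = 9 each; log2 fold change 6.26, SE 0.35, edgeR adjusted p = 4.78e-06). *Gstm3* followed with 5.79 (SE 0.64) at a level of 1.73 CPM in Best1-Nrf2 eyes, and *Gstm2* with 2.60 (SE 0.20). None of the theta, omega, zeta, kappa, sigma or microsomal genes passed the threshold, with log2 fold changes from -0.82 to 0.95.

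**Figure D5:**
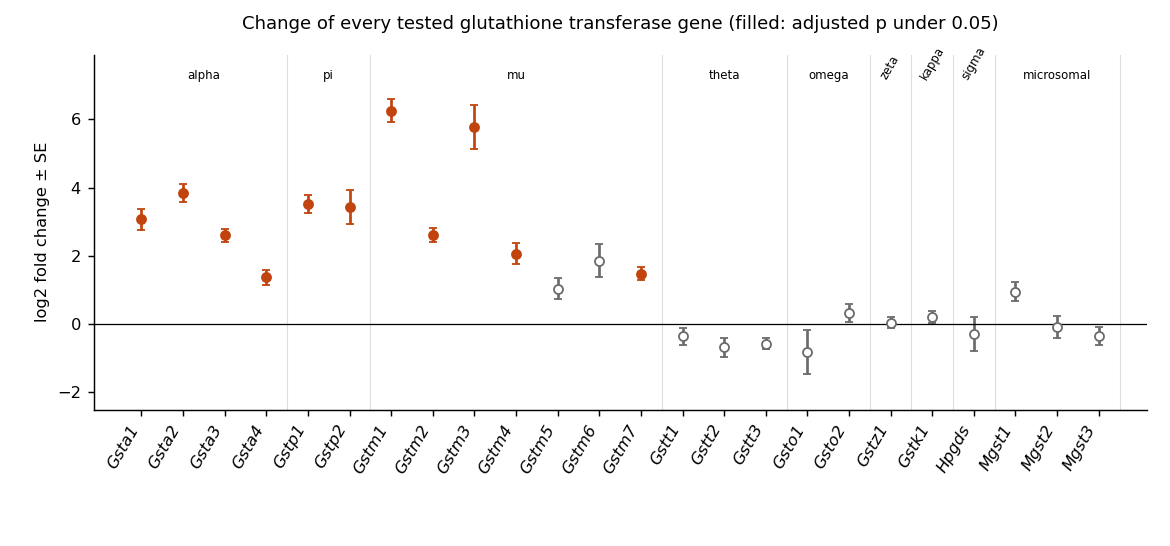
Log2 fold change ± SE of the 6 members and the 18 tested genes of other transferase classes, grouped by class, with filled points for an adjusted p under 0.05 (the copy *Gm10639* is not drawn). All 4 alpha and both pi members and 5 of 7 mu genes are filled, and the genes of the remaining classes lie between -0.82 and 0.95.

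For the export and breakdown of glutathione conjugates, 4 of 14 tested genes rose and none fell (median log2 fold change 0.55). The genes with the largest changes were *Ggt5*, a gamma-glutamyl cleaving enzyme, at 3.36 (SE 0.54), and the conjugate exporters *Abcc4* at 2.95 (SE 0.39) and *Abcc3* at 2.91 (SE 0.72). Of 12 other enzymes that reduce or oxidize alkenals and aldehydes, 3 rose and none fell (median 0.49). These were *Ptgr1*, which reduces the double bond of alkenals, at 3.99 (SE 0.40), and the carbonyl reductases *Cbr3* at 3.50 (SE 0.17) and *Cbr1* at 1.22 (SE 0.20).

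The genes whose levels ran most like those of each member were found by Pearson's r of log2 CPM over the 18 libraries, among 11802 genes. For *Gsta1* the closest was *Rida*, which clears reactive imines (r = 0.990), and for *Gsta2* and *Gstp1* it was *Blvrb*, a biliverdin reductase (r = 0.993 and 0.996). Because both groups enter these values, any gene with a large change scores high. Over the 9 within-mouse changes alone, r was 0.956, 0.916 and 0.927 for these pairs. *Gsta3* was closest to *Cbr3* (r = 0.974), but over within-mouse changes the value was only 0.394. *Gsta4* ran with *Pir*, a nuclear protein that is itself an Nrf2 target (r = 0.956, and 0.884 within mice), then with *Gadd45b* and *Ube2d1*. *Gstp2* was closest to *Ptgr1* (r = 0.943, and 0.726 within mice). *Rida*, *Blvrb* and *Tmem37* made up the 3 closest genes of both *Gsta1* and *Gstp1*, and none of them was among the 3 closest of *Gsta4*.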

How the data were processed

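RPE RNA of rd1 mice at P40, released from the eyecup into RNA Protect, was analysed as 9 pairs of libraries, grouped by the treatment in the labels and paired by the animal number. The authors amplified poly(A) RNA, aligned reads to mm10 with Ensembl release 91 by STAR and counted them with featureCounts, and in parallel quantified transcripts with Salmon (0.8.1 in the submitters' processing notes), imported by tximport. The deposited values are expected counts per gene, whole numbers without scaling. The table does not name the counter, and this unit is the more cautious reading. Of genes with over 200 counts in all, 13 hold the same values as another gene in every library, the members not among them. No molecular identifiers are described, so reads are not independent molecules. The SDs and standard errors given are over mice. The labels do not assign libraries to sequencing runs, so run could not be a term. Whether the mice came from separate litters is not given.

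Symbols were matched for 47224 of 47729 genes. Counts were filtered with filterByExpr, scaled by TMM and tested in edgeR 4.0.16 (R 4.3.3) by its quasi-likelihood F test, with mouse as a block and Benjamini-Hochberg adjustment over 18958 genes at a threshold of 0.05. Log2 CPM used a prior count of 2. Standard errors came from the F statistic. Over 72 pairs of libraries of the same group, the smallest chi-square per degree of freedom was 44.5, so none was a duplicate. Deviations of the eyes of a mouse had a median correlation of -0.00095 (range -0.37 to 0.64), so the pairing rests on the labels. Transcripts and positions were taken from GENCODE (mouse release 21, GRCm38), another release than the authors'. The tests were tried on simulated data.

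The members and all gene lists were chosen with earlier results of these data known. Named are the 6 members, genes of the supply list, relatives, *Nfe2l2* and *Nqo1*, the 3 called genes with the largest change in each other pathway list, and the 3 genes most like each member (mean log2 CPM 2 or more). The RPE markers called lower, the fallen and risen marker counts and the order of control eyes by cone score were singled out after their values were seen. Alternatives were no block, RLE and upper-quartile scaling, DESeq2 1.42.0, limma 3.58.1 voom with sample weights, no filter, at least 10 counts in every library, photoreceptor and RPE marker covariates, summed copies and leaving out each mouse. Added after seeing the data were leaving out mice 6 and 8 together, the photoreceptor covariate without the block, and a lens marker covariate. No library was left out.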

Additional observations from a re-analysis of the deposited data

Results flagged for a closer look

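In a screen of 50 groups of 9 libraries for a single library far from the rest, 4 stood apart, where chance gives about 1 in 20, or 2.5 groups. The control eye of mouse 1 had a *Gsta3* level of 6.28 on the log2 CPM scale, below the next at 7.62. The same eye gave mouse 1 the largest within-mouse change of *Gsta3*, 3.34, and without this mouse the call remained. The RPE marker score (mean log2 CPM of 19 genes) of the control eye of mouse 8 was 7.70, below the next at 8.80. This is also the smallest library and the control eye with the highest *Gsta4*, *Gstp2* and *Nfe2l2*. In the Best1-Nrf2 eye of mouse 6, the rod marker score was 1.88 (next, 0.90) and the cone marker score was 4.14 (next, 2.35). Without mice 6 and 8 together, left out after seeing the data, the log2 fold change was 1.47 for *Gsta4*, 3.38 for *Gstp1* and 3.84 for *Gstp2*.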

How the results depend on the processing

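Over 22 alternatives, *Gsta1*, *Gsta2*, *Gsta3* and *Gstp1* kept their direction and their call, with log2 fold changes of 2.88 to 3.90, 3.39 to 4.50, 2.07 to 2.69 and 3.38 to 4.27 and adjusted p values up to 0.0438, 0.0143, 0.0476 and 0.0176. No result turned its direction. The call for *Gsta4* was lost without the replicate block for mouse (1.22, adjusted p = 0.107), and pairing by mouse changed no other member's call. It was also lost with the photoreceptor covariate (0.91, adjusted p = 0.315), the RPE marker covariate (1.24, adjusted p = 0.0667) and, in an alternative chosen after seeing the data, the photoreceptor covariate without the block (0.31, adjusted p = 0.908). *Gstp2* was lost under the same 3 covariate fits (2.18, adjusted p = 0.329, then 2.43, adjusted p = 0.0773, and 1.78, adjusted p = 0.446). It could not be tested with at least 10 counts in every library, because the control eyes of mice 1 and 9 had 8 and 3. *Nfe2l2* lost its call in both photoreceptor fits (1.85, adjusted p = 0.123, and, without the block, 1.60, adjusted p = 0.0691) and *Gm10639* in the first (4.33, adjusted p = 0.0704). At least 4 of the 6 members were called in every alternative. The count over all genes, 806, became 1478 with DESeq2, 1426 with voom, 27 with the photoreceptor covariate, 354 with the RPE marker covariate and 73 with the photoreceptor covariate without the block. The pathway count of 17 became 3 in both photoreceptor fits. The causes were not tested. Leaving out each mouse gave 6 called members throughout, 540 (without mouse 7) to 1046 (without mouse 6) called genes, 16 to 18 pathway genes, and log2 fold changes of 2.88 to 3.27, 3.68 to 4.00, 2.55 to 2.69, 1.29 to 1.44, 3.38 to 3.67 and 3.15 to 3.78 for *Gsta1*, *Gsta2*, *Gsta3*, *Gsta4*, *Gstp1* and *Gstp2*. Depth limits *Gstp2* alone among the members, with 3 to 81 counts in control eyes.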

Other observations

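The members differed in how evenly they were expressed over eyes of the same group. The coefficient of variation over 9 control eyes was 39.5% for *Gsta3*, 43.2% for *Gsta2*, 45.7% for *Gstp1*, 53.4% for *Gsta1*, 73.3% for *Gsta4* and 158% for *Gstp2*. In Best1-Nrf2 eyes it was lower for each of the 6, from 24.3% for *Gsta3* to 52.7% for *Gsta4*, and this difference was not tested. *Slc7a11*, *Gclc*, *Gclm*, *Gss* and *Gsr*, the genes of glutathione supply, went the other way, from 17.9% to 33.2% without Nrf2 and from 44.3% to 61.9% with it. In the Best1-Nrf2 eye of mouse 4, *Gsta1*, *Gsta2*, *Gsta3*, *Gstp1*, *Nqo1* and all 5 supply genes had their highest level, whereas *Gsta4* was highest in mouse 8 and *Gstp2* in mouse 6.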
